A study of Mus musculus with 12 samples.

Results

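The miRNA precursors described here are mmu-mir-204, mmu-mir-211, mmu-mir-448 and mmu-mir-1298, which are enriched in the choroid plexus, and mmu-mir-34b, mmu-mir-34c and mmu-mir-449a, which are enriched in multiciliated cells. These 7 were chosen by name, as an index of what a dissected cortex carries of both tissues, and all 7 are among the 589 precursors of the series. Small RNA of the cerebral cortex was sequenced in female mice of the C57BL/6J background, 7 weeks old at the start, in 4 groups of 3 libraries. WT mice (with an intact Toll-like receptor 4, TLR4) drank water for 5 months, and WT + EtOH mice drank water with 10% (v/v) ethanol over the same time. TLR4-KO mice, which lack the receptor, drank water for 5 months, and TLR4-KO + EtOH mice had the same ethanol. A library was made from RNA that had been pooled over 3 mice, and the 36 mice of the 12 libraries had been picked for RNA quality, so an SD is a spread between pools and p-values measure only that spread. Small RNA libraries do not measure Tlr4 mRNA, so the genotype of a library could not be checked on its target.

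The choroid plexus is a secretory epithelium in the ventricles that makes cerebrospinal fluid, and the multiciliated ependymal cells that line the ventricles move that fluid. miRNAs are short RNAs cut from a hairpin precursor, and bases 2 to 8 of the mature strand (the seed) pair with target mRNAs. miRNAs of the miR-34 and miR-449 families are needed for the growth of motile cilia, and miR-204 and miR-211 are abundant in secretory and pigment epithelia. None of these precursors belongs to 1 cell type alone, since neurons of the cortex also express Htr2c, the host gene of mmu-mir-448 and mmu-mir-1298, and also make miR-34c. In bulk tissue, fewer cells of a type and less RNA per cell cannot be told apart.

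The values are scores without a unit. Their form, inferred from the values themselves, is that of a logarithm of reads brought to a shared distribution, and the highest score was 135 in every library. Differences are therefore given as differences of scores and not as folds. The file of scores holds no read totals, so no depth is given here beside a score. The number of precursors above 0 was 270, 260 and 260 in the WT libraries, 270, 233 and 229 in WT + EtOH, 262, 229 and 216 in TLR4-KO, and 262, 247 and 236 in TLR4-KO + EtOH. A score of 0 is read here only as a precursor listed at 0 in that library.

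The 7 precursors fell into those seen in every library and those at or near 0. Above 0 in all 12 libraries were mmu-mir-204, mmu-mir-1298, mmu-mir-34c and mmu-mir-211. By the mean over the 12 libraries, mmu-mir-204 ranked 29 of the 324 precursors above 0 anywhere, mmu-mir-1298 ranked 102, mmu-mir-34c ranked 106 and mmu-mir-211 ranked 193. In contrast, mmu-mir-448 was above 0 in 5 libraries, mmu-mir-34b in 2 and mmu-mir-449a in none. Thus 4 of the 7 precursors were detected in WT and 5 in each of the other groups, where detection means a score above 0 in at least 1 of the 3 libraries. Over all precursors the same count was highest in WT (286) and lowest in TLR4-KO (265), with 280 under ethanol in the former genotype and 272 in the latter. These counts hold for the deposited scores alone, and the zeros of mmu-mir-448, taken up below, do not show its absence from a group. Of the multiciliated list, mmu-mir-34c was the only precursor seen in all 12 libraries, so that the name of the list is carried by a precursor that neurons also make.

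**Figure D1:**
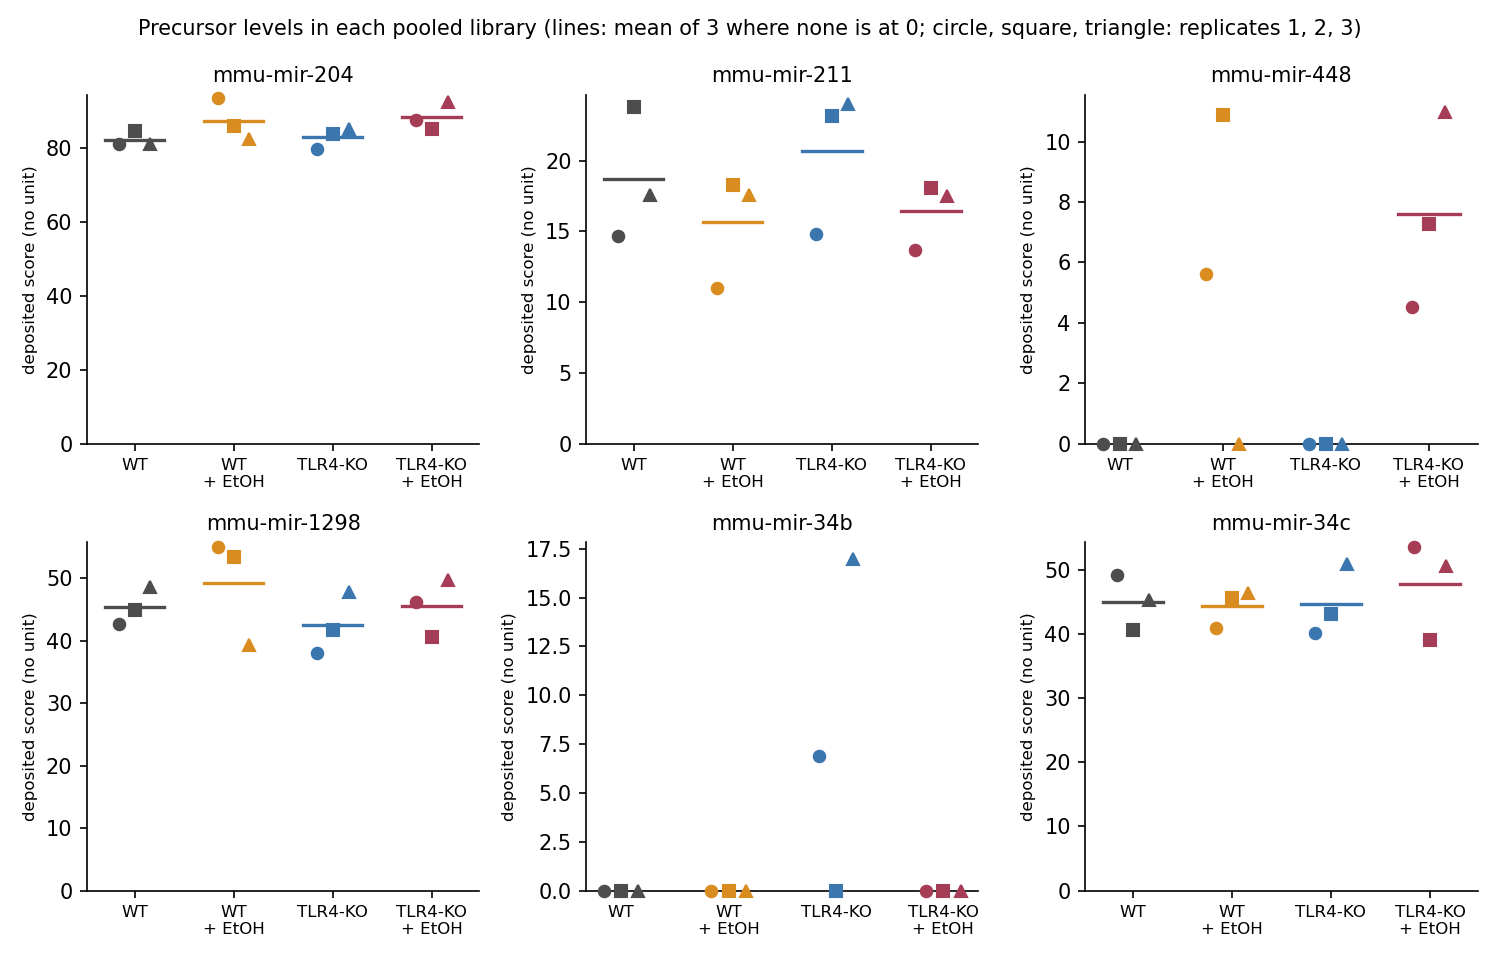
Score (no unit, vertical axis from 0) of 6 precursors in each pooled library of the 4 groups, with 1 symbol per library and a line at the group mean where none of the 3 libraries is at 0. mmu-mir-449a is not drawn, since it was listed at 0 in all 12 libraries. mmu-mir-448 lay at 0 in the 6 libraries of water-drinking mice and above 0 in 5 of the 6 libraries of ethanol-drinking mice. All groups of mmu-mir-211, mmu-mir-1298 and mmu-mir-34c overlapped with each other. For mmu-mir-204 the groups overlapped within each genotype, in TLR4-KO only at 85.2. Its WT scores (81.1 to 84.6) lay below those of TLR4-KO + EtOH (85.2 to 92.4). These groups differ in both genotype and drink and were not among the comparisons made. No share over all precursors is given for this pair, so its lack of overlap is not read as a separation.

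mmu-mir-204 and mmu-mir-211 are copies of 1 family in the introns of related ion channel genes. In the GENCODE M21 annotation of GRCm38, mmu-mir-204 lies in an intron of Trpm3 on the same strand (chr19:22750605-22750672, + strand), and mmu-mir-211 in an intron of Trpm1 on the same strand (chr7:64205806-64205911, + strand). Their mature 5p strands, from RefSeq (GRCm38.p6), are shown because they share the seed, given in capitals, and nearly all other bases:
mmu-miR-204-5p: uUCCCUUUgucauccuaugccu
mmu-miR-211-5p: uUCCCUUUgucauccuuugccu
They are identical at 21 of 22 bases, with the difference A17U (from miR-204-5p to miR-211-5p, counted from the 5′ end). A read with a sequencing error at that base could be counted for the other copy, so the lower score of mmu-mir-211 is uncertain to that extent.

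The score of mmu-mir-204 was 81.1, 84.6 and 81.1 in the WT libraries and 93.7, 86.1 and 82.4 in the WT + EtOH libraries. It was 79.9, 83.7 and 85.2 in the TLR4-KO libraries and 87.7, 85.2 and 92.4 in the TLR4-KO + EtOH libraries. The libraries of ethanol-drinking mice reached the higher scores in both genotypes, yet the groups overlapped in each, in TLR4-KO only at 85.2. Over both genotypes, the score ranged from 79.9 to 85.2 with a median of 82.4 in the 6 libraries from water-drinking mice, and from 82.4 to 93.7 with a median of 86.9 in the 6 from ethanol-drinking mice. The order of the group means was TLR4-KO + EtOH (88.4 ± 3.68, SD, n = 3), WT + EtOH (87.4 ± 5.77), TLR4-KO (82.9 ± 2.74) and WT (82.3 ± 2.0), and no neighbours in that order differed by more than the larger of their SDs.

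The ethanol difference of mmu-mir-204 was 5.12 (SE 3.06) in WT and 5.52 (SE 3.06) in TLR4-KO mice, and its mean over both genotypes was 5.32 (SE 2.16). Leaving out single libraries moved the difference in WT between 1.97 (without WT + EtOH replicate 1) and 7.62 (without WT + EtOH replicate 3), and that in TLR4-KO between 3.52 (without TLR4-KO + EtOH replicate 3) and 7.15 (without TLR4-KO + EtOH replicate 2). The mean difference over both genotypes did not pass the test across all 589 precursors (limma, adjusted p = 0.513, unadjusted p = 0.0383). The oligodendrocyte miRNA mmu-mir-338 had a mean ethanol difference of the same size, 6.04 (SE 2.19, limma adjusted p = 0.381), and its part in that of mmu-mir-204 was not tested. The other 3 precursors of the oligodendrocyte list did not share it, at -1.77 (SE 4.70) for mmu-mir-219b, 1.93 (SE 2.10) for mmu-mir-219a-2 and 0.706 (SE 0.692) for mmu-mir-219a-1, and the last 2 were at 0 in most libraries. When the drink labels were permuted within each genotype, the exact two-sided p for mmu-mir-204 alone was 0.025 over 400 arrangements, where the smallest p possible is 0.005. It is 1 of 8 such tests made on 4 precursors and is not adjusted for them. The exact permutation p was over 0.05 when any of 4 of the 12 libraries was left out, at 0.065 without WT replicate 1, WT replicate 3 or WT + EtOH replicate 1, and at 0.06 without TLR4-KO replicate 1. The mean TLR4-KO difference of mmu-mir-204 over both drinks was 0.819 (SE 2.16, exact permutation p = 0.68).

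The score of mmu-mir-211 was 14.7, 23.8 and 17.6 in WT, and 11.0, 18.3 and 17.6 in WT + EtOH. It was 14.8, 23.2 and 24.0 in TLR4-KO, and 13.7, 18.1 and 17.5 in TLR4-KO + EtOH. All groups overlapped, and the ethanol libraries stayed at or under 18.3 while 3 of the libraries from water-drinking mice exceeded 23.0. The group means were in the order TLR4-KO (20.7 ± 5.08, SD, n = 3), WT (18.7 ± 4.65), TLR4-KO + EtOH (16.4 ± 2.39) and WT + EtOH (15.6 ± 4.04), with no neighbours apart by more than their larger SD. The mean ethanol difference was -3.68 (SE 2.36, exact permutation p = 0.14), from -5.15 to -2.41 with single libraries left out and opposite in sign to that of mmu-mir-204, and the mean TLR4-KO difference was 1.38 (SE 2.36, exact permutation p = 0.57). The latter ran from 0.213 to 2.84 in the same way, and the exact permutation p from 0.06 to 0.29 for ethanol and from 0.26 to 0.925 for TLR4-KO.

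mmu-mir-1298 and mmu-mir-448 both lie on the + strand in introns of Htr2c, the gene of a serotonin receptor that the choroid plexus expresses strongly. On chromosome X of GRCm38, mmu-mir-1298 (chrX:147064905-147065002) is followed by mmu-mir-448 (chrX:147158210-147158321) after 93207 bases. The RefSeq table gives no other mature miRNA with the seed of either, and their leading strands are shown to set these seeds beside those of the other members:
mmu-miR-1298-5p: uUCAUUCGgcuguccagaugua
mmu-miR-448-3p: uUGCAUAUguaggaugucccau
The score of mmu-mir-1298 was 42.7, 45.0 and 48.6 in WT, and 55.0, 53.4 and 39.4 in WT + EtOH. It was 38.1, 41.7 and 47.9 in TLR4-KO, and 46.3, 40.6 and 49.8 in TLR4-KO + EtOH. Of the 3 WT + EtOH libraries, replicates 1 and 2 were the highest of all 12, but replicate 3 was lower than every WT library, and all groups overlapped. The order of the group means was WT + EtOH (49.3 ± 8.59, SD, n = 3), TLR4-KO + EtOH (45.6 ± 4.62), WT (45.4 ± 3.02) and TLR4-KO (42.6 ± 4.98), and no neighbours differed beyond the larger SD. The mean ethanol difference was 3.44 (SE 3.22, exact permutation p = 0.29), from 2.01 to 5.91 with single libraries left out, and the mean TLR4-KO difference was -3.29 (SE 3.22, exact permutation p = 0.3), from -5.76 to -1.85. The exact permutation p ran from 0.055 to 0.545 for ethanol and from 0.055 to 0.585 for TLR4-KO, both lowest without WT + EtOH replicate 3.

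Of the 7 precursors, mmu-mir-448 had the largest mean difference between the drinks in the main setting, all of it at low scores. With quantile normalization this mean difference was 5.01, under the mmu-mir-204 differences of 5.08 in WT and 5.55 in TLR4-KO. mmu-mir-448 was listed at 0 in the 3 WT and the 3 TLR4-KO libraries. In WT + EtOH it was 5.63, 10.9 and 0, and in TLR4-KO + EtOH it was 4.54, 7.27 and 11.0. The TLR4-KO + EtOH libraries were all above the TLR4-KO libraries, whereas WT + EtOH overlapped with WT through its replicate 3. The lowest score above 0 of any precursor was 11.27 and 14.07 in TLR4-KO replicates 2 and 3, and 11.34 in WT + EtOH replicate 3. These exceed the highest score of mmu-mir-448 (11.0), so its zeros in these libraries cannot be compared with its scores elsewhere. In the 5 libraries where it was above 0, between 2 and 19 of the other precursors above 0 had a lower score, so it lay close to the bottom of each list. The mean ethanol difference was 6.55 (SE 1.79), which did not pass the test across all precursors (limma, adjusted p = 0.181, unadjusted p = 0.00607). Its SE pools the spread of all groups, and WT and TLR4-KO had an SD of 0, which lowers the SE and the p. The ethanol difference was 5.51 (SE 2.54, limma adjusted p = 0.449) in WT and 7.59 (SE 2.54, limma adjusted p = 0.461) in TLR4-KO mice, and the difference between both was 2.08 (SE 3.59, limma adjusted p = 1). The difference in WT was 2.82 without WT + EtOH replicate 2 and 8.27 without WT + EtOH replicate 3. No permutation test had been set for a precursor above 0 in fewer than 10 libraries.

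Some of the 589 precursors showed the same layout as mmu-mir-448. A score of 0 in the 6 libraries from water-drinking mice and above 0 in at least 5 of the 6 from ethanol-drinking mice was held by 3 of them, mmu-mir-448, mmu-mir-24-1 and mmu-mir-712, and the reverse by 1, mmu-mir-200b. The bar of 5 is the layout of mmu-mir-448 itself. With at least 4 libraries above 0 there were 4 precursors against 3 in reverse, and with at least 3 there were 5 against 5. mmu-mir-24-1, mmu-mir-712 and mmu-mir-200b were chosen after their values were seen. The zeros of mmu-mir-448 do not show its absence, since other values that the study gives for these libraries are not at zero for it in every library from water-drinking mice.

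The other precursors of Htr2c did not share this layout. mmu-mir-764 (chrX:147002259-147002366) scored 4.20, 18 and 11.2 in WT, and 2.72, 10.9 and 11.3 in WT + EtOH. In TLR4-KO it scored 4.20, 17.8 and 0, and it was listed at 0 in the 3 TLR4-KO + EtOH libraries, the group in which mmu-mir-448 was above 0 in all 3. Its mean ethanol difference was -5.07 (SE 3.55, limma adjusted p = 1), from -6.90 to -2.45 with single libraries left out, and its mean TLR4-KO difference was -6.06 (SE 3.55, limma adjusted p = 0.791), from -8.67 to -4.23. mmu-mir-1264 (chrX:147010601-147010686) was above 0 in 2 libraries, at 5.23 in WT replicate 3 and at 2.72 in WT + EtOH replicate 1. Thus, of 4 precursors from introns of 1 gene, mmu-mir-1298 was above 0 in 12 libraries, mmu-mir-764 in 8, mmu-mir-448 in 5 and mmu-mir-1264 in 2. None of the 4 passed the limma test in any of the 7 comparisons. mmu-mir-1911 and mmu-mir-1912, also of this gene, were not analysed here.

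**Figure D2:**
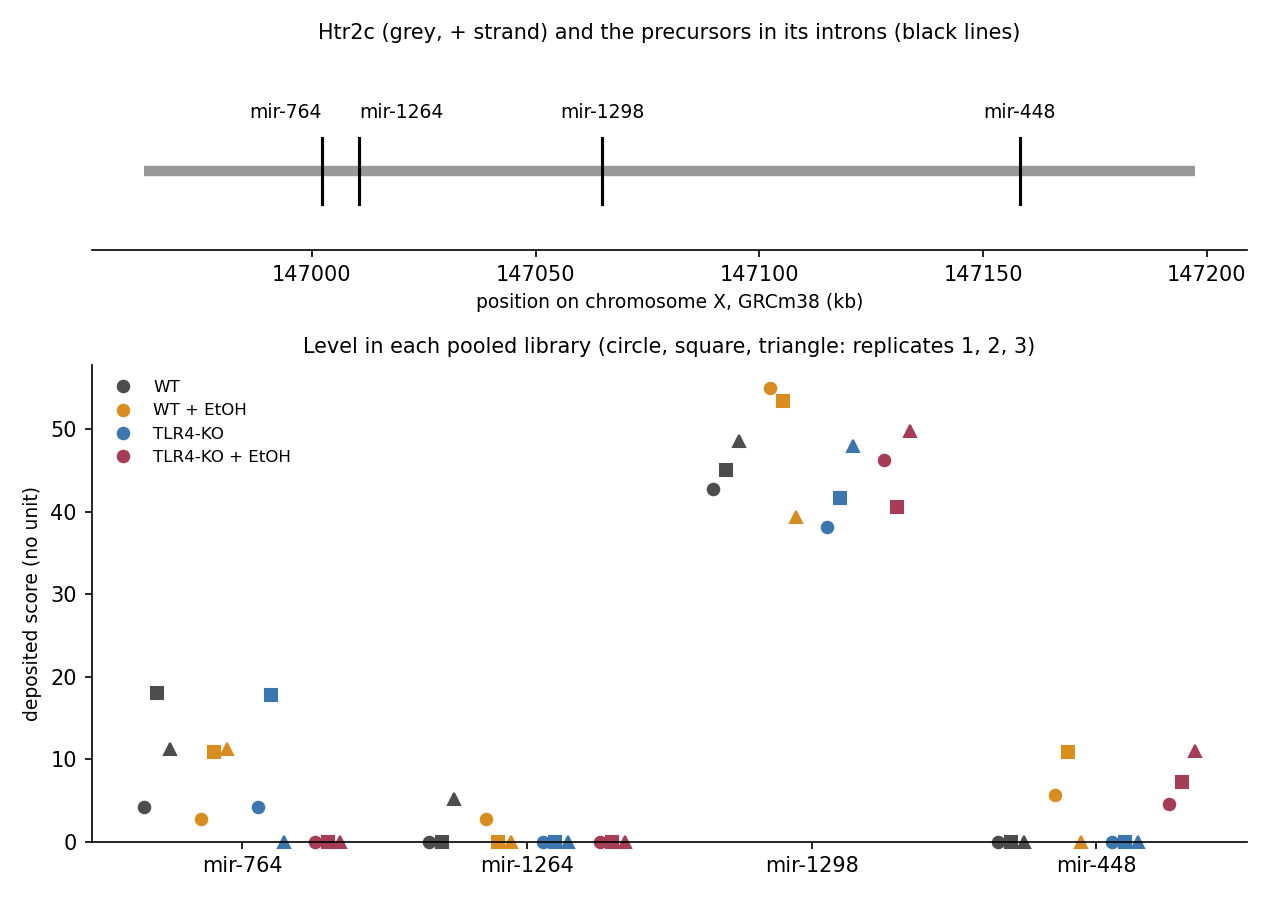
The upper panel maps Htr2c (grey, chromosome X of GRCm38, position in kb) with the start of 4 precursors in its introns, to scale. The lower panel plots their score (no unit, from 0) in each of the 12 pooled libraries, coloured by group, where mmu-mir-1298 lies between 38.1 and 55.0 and the other 3 at or under 18.

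mmu-mir-34b and mmu-mir-34c are neighbours on chromosome 9, with 451 bases between them, in introns of Btg4 and on its opposite strand (chr9:51103562-51103645 and chr9:51103034-51103110, - strand). mmu-mir-449a lies in an intron of Cdc20b on the same strand (chr13:113037534-113037624, + strand), next to mmu-mir-449c. The 5p strands of the miR-34 and miR-449 families are shown because they share 1 seed, also with mmu-mir-34a on chromosome 4:
mmu-miR-34a-5p: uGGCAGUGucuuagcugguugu
mmu-miR-34b-5p: aGGCAGUGuaauuagcugauugu
mmu-miR-449a-5p: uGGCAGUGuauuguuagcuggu
mmu-miR-449c-5p: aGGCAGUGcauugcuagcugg
The RefSeq table has no entry for the 5p strand of mmu-mir-34c, so it is not printed here, but the hairpin of mmu-mir-34c holds the same seed once, from base 14 on. From the base before it, 21 of 23 bases are those of miR-34b-5p. In spite of the shared seed, these 5 precursors stood at different levels, with mmu-mir-34c the highest (mean 45.5 over the 12 libraries). mmu-mir-449a and mmu-mir-449c were listed at 0 in all 12 libraries, and mmu-mir-449b was not analysed here.

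The score of mmu-mir-34c was 49.2, 40.6 and 45.3 in WT, and 40.9, 45.6 and 46.4 in WT + EtOH. It was 40.2, 43.1 and 50.9 in TLR4-KO, and 53.6, 39.1 and 50.6 in TLR4-KO + EtOH. The TLR4-KO + EtOH group held both the highest and the lowest of the 12 scores, and all groups overlapped. The order of the group means was TLR4-KO + EtOH (47.8 ± 7.67, SD, n = 3), WT (45.1 ± 4.31), TLR4-KO (44.7 ± 5.51) and WT + EtOH (44.3 ± 2.96), without neighbours that differed beyond their spread. The mean ethanol difference was 1.16 (SE 3.06, exact permutation p = 0.715), from -0.297 to 3.34 with single libraries left out. The mean TLR4-KO difference was 1.58 (SE 3.06, exact permutation p = 0.605). With single libraries left out the latter ran from 0.0393 (without TLR4-KO replicate 3) to 3.75 (without TLR4-KO + EtOH replicate 2), with an exact permutation p from 0.2 to 1.

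mmu-mir-34b was above 0 in TLR4-KO replicates 1 and 3 alone, at 6.87 and 17.0, and was listed at 0 in the other 10 libraries. In both of these, mmu-mir-34c, its neighbour on the chromosome, was above it at 40.2 and 50.9. The lowest score above 0 of any precursor was 4.204 in TLR4-KO replicate 1 and 14.07 in TLR4-KO replicate 3. Between 3 and 19 of the other precursors above 0 scored lower than mmu-mir-34b there, so it lay close to the bottom of both lists. The difference of mmu-mir-34b was 7.96 (SE 3.43) for TLR4-KO minus WT (limma, adjusted p = 0.395) and -7.96 for TLR4-KO + EtOH minus TLR4-KO (limma, adjusted p = 0.685). Both differences rest on the same 2 libraries, and pooling with groups at an SD of 0 lowered their SE. The first was 3.43 without TLR4-KO replicate 3 and 11.9 without TLR4-KO replicate 2, and its limma adjusted p ran from 0.0677 (the latter omission) to 0.741 over the alternatives.

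mmu-mir-34a, the family member that most tissues express, was above 0 in all 12 libraries. Its score was 38.1, 22.7 and 31.2 in WT, and 29.6, 32.0 and 35.5 in WT + EtOH. It was 40.6, 33.1 and 39.6 in TLR4-KO, and 25.7, 29.0 and 30.7 in TLR4-KO + EtOH. The latter pair of groups did not overlap, and the other ethanol comparison did. The difference was -9.33 (SE 3.83, limma adjusted p = 0.675) for TLR4-KO + EtOH minus TLR4-KO and 1.70 (SE 3.83, limma adjusted p = 1) for WT + EtOH minus WT.

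None of the 7 precursors passed the limma test (adjusted p under 0.05 over 589 precursors) in any of the 7 comparisons. For WT + EtOH minus WT, 0 of 7 were called, beside 1.70% of all precursors (10 of 589), and 0 of 7 were under an unadjusted p of 0.05, beside 12.6% of all. For TLR4-KO minus WT, 0 of 7 were called beside 2.55% of all (15 of 589), and at the unadjusted level there was 1, mmu-mir-34b, beside 12.2%. For TLR4-KO + EtOH minus TLR4-KO, 0 of 7 were called beside 0.340% of all (2 of 589), and at the unadjusted level there were 2, mmu-mir-34b and mmu-mir-448, beside 6.96%. The limma spread is pooled over the groups, and mmu-mir-34b had an SD of 0 in all but TLR4-KO (SD 8.55). mmu-mir-448 had an SD of 0 in WT and TLR4-KO. Pooling with such groups lowers the SE, so the unadjusted p-values of both are not taken at face value. The last comparison of groups, TLR4-KO + EtOH minus WT + EtOH, called 0 of 7 beside 0.509% of all (3 of 589), and 0 at the unadjusted level beside 4.58%. The shares of all precursors include those at 0 in all 12 libraries, which cannot differ. Over the 324 above 0 anywhere, of which 6 are members, the unadjusted limma shares in these 4 comparisons were 22.8%, 22.2%, 12.7% and 8.33%, and the called shares 3.09%, 4.63%, 0.617% and 0.926%. With so few precursors called in all, a count of 0 among 7 is near the background in each comparison.

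The ethanol effect in TLR4-KO mice less that in WT mice was called for 0 of the 7 precursors, beside 1.19% of all (7 of 589), and 0 were under an unadjusted limma p of 0.05, beside 12.6%. This difference ran from -7.96 (SE 4.85, mmu-mir-34b) to 3.86 (SE 6.12, mmu-mir-34c), and the lowest limma adjusted p among the 7 was 0.700. With single libraries left out, that of mmu-mir-34b ran from -11.9 to -3.43 and that of mmu-mir-34c from 0.941 to 8.21. The mean ethanol effect over both genotypes was called for 0 of 7 beside 0.340% of all (2 of 589). At an unadjusted limma p under 0.05 there were 2, mmu-mir-204 and mmu-mir-448, beside 8.49% of all precursors. The p of mmu-mir-448 has the limit of the pooled spread given above. The mean TLR4-KO effect over both drinks was called for 0 of 7 beside 1.36% of all (8 of 589), with 0 at the unadjusted level beside 9.0%. Over the 324 precursors above 0 anywhere, the unadjusted shares for the difference of the ethanol effects and for both mean effects were 22.8%, 15.4% and 16.4%. The TLR4-KO minus WT differences of the 4 precursors seen in all libraries lay between -2.86 (mmu-mir-1298) and 1.94 (mmu-mir-211), each within its SE. With single libraries left out, that of mmu-mir-1298 ran from -5.54 to -0.629 and that of mmu-mir-211 from -0.0538 to 4.87. With ethanol in both groups the differences of the 4 lay between -3.72 (mmu-mir-1298) and 3.51 (mmu-mir-34c), also each within its SE. With single libraries left out these 2 ran from -8.66 to -0.853 and from 0.586 to 7.85.

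Counting groups whose 3 libraries do not overlap gave a like picture. For WT + EtOH against WT, 0 of the 7 precursors did not overlap, beside 16.8% of all 589, and for TLR4-KO against WT there were 0 beside 15.6%. For TLR4-KO + EtOH against TLR4-KO there was 1, mmu-mir-448, beside 6.11%, and for TLR4-KO + EtOH against WT + EtOH there were 0 beside 4.92%. Among the 324 above 0 anywhere these shares were 30.6%, 28.4%, 11.1% and 8.95%. In TLR4-KO replicates 2 and 3 the lowest score above 0 (11.27 and 14.07) exceeded the highest score of mmu-mir-448 (11.0). Its zeros there cannot be compared with its scores elsewhere, so its lack of overlap is not read as a separation of the groups. With 3 libraries in each group, the smallest p of an exact two-sided permutation test is 0.1, so a lack of overlap in such a pair is no call. The comparisons with WT share its 3 libraries, as do those with each other group, and are not independent of each other.

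The median difference over the 4 choroid plexus precursors was 4.50 for WT + EtOH minus WT and 4.26 for TLR4-KO + EtOH minus TLR4-KO, where the median over all 589 precursors was 0 in both, and 0.306 and 0 over the 190 that were above 0 in all libraries. Leaving out single libraries moved the first from 1.49 (without WT + EtOH replicate 1) to 7.94 (without WT + EtOH replicate 3) and the second from 2.22 (without TLR4-KO + EtOH replicate 3) to 6.32 (without TLR4-KO + EtOH replicate 2). These medians do not describe each precursor, since mmu-mir-211 went the other way (-3.12 and -4.25) and mmu-mir-448 had the largest difference of the 4 in both (5.51 and 7.59), at low scores. For TLR4-KO minus WT the median was 0.311, from -0.251 to 1.08 with single libraries left out, and the 190 precursors had a median of 0.555. The 3 multiciliated precursors had a median of 0 in all of these comparisons. That median does not show a lack of change, since mmu-mir-449a, at 0 in all 12 libraries, holds the middle place. For TLR4-KO minus WT, mmu-mir-34b differed by 7.96 and mmu-mir-34c by -0.355, and the median ran from 0 to 1.90 with single libraries left out. For TLR4-KO + EtOH minus TLR4-KO they differed by -7.96 and 3.09. For WT + EtOH minus WT, the 13 neuron precursors had a median of 3.90 (2.16 to 6.21 with single libraries left out), near the 4.50 above. The 4 oligodendrocyte precursors had 2.50 (0.0960 to 3.34). The epithelial, miR-183, vascular, fibroblast, leukocyte and erythroid lists were at or under 0. For TLR4-KO + EtOH minus TLR4-KO the neuron median was negative, the oligodendrocyte median 0.0589 and that of the miR-183 cluster 8.87. In the 12 libraries, the SD of mmu-mir-211 was 4.12, of mmu-mir-204 4.30, of mmu-mir-34c 4.82 and of mmu-mir-1298 5.45, around the median SD of 4.51 for the 190 precursors. Thus none of the 4 stood out among those precursors by its spread.

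The members did not vary together as 1 group over the 12 libraries. Pearson r, given as a description over libraries that share 1 normalization and with no test, was 0.707 between mmu-mir-204 and mmu-mir-1298. With mmu-mir-204, mmu-mir-1298 ranked 5 among 189 precursors, and with mmu-mir-1298, mmu-mir-204 ranked 4. With the group means taken off, r between them was 0.783. mmu-mir-211 had an r of -0.272 with mmu-mir-204, its seed copy, and of -0.185 with mmu-mir-1298, and ranked 144 and 137 in these orders. With the group means taken off these were 0.0213 and 0.0273. mmu-mir-34c had an r of 0.16 with mmu-mir-204, of 0.222 with mmu-mir-1298 and of -0.0509 with mmu-mir-211.

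The precursors outside the 7 that were most like mmu-mir-204 over the 12 libraries were mmu-mir-100 (r = 0.783), mmu-mir-338 (0.741), mmu-mir-124-3 (0.727), mmu-mir-151 (0.713) and mmu-mir-10a (0.617). mmu-mir-100 (r = 0.702) and mmu-mir-338 (0.688), a miRNA of oligodendrocytes, were also among the 5 most like mmu-mir-1298, after mmu-mir-340 (0.769), mmu-mir-3086 (0.723) and mmu-mir-106b (0.709). For mmu-mir-211 they were mmu-mir-6540 (r = 0.857), mmu-mir-708 (0.813), mmu-mir-369 (0.782), mmu-mir-433 (0.705) and mmu-mir-99a (0.681). For mmu-mir-34c they were mmu-mir-488 (r = 0.855), mmu-mir-24-2 (0.797), mmu-mir-873a (0.667), mmu-mir-181b-1 (0.641) and mmu-mir-7a-1 (0.619). No precursor other than mmu-mir-100 and mmu-mir-338 was in more than 1 of these 4 sets.

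Summed scores of the lists show how the 7 precursors stood beside markers of other cells in the same libraries. The choroid plexus list (4 of 4 found, led by mmu-mir-204) summed to 139, 153 and 147 in WT, 165, 169 and 139 in WT + EtOH, 133, 149 and 157 in TLR4-KO, and 152, 151 and 171 in TLR4-KO + EtOH. The multiciliated list (3 of 3 found, led by mmu-mir-34c, with mmu-mir-449a at 0) summed to 49.2, 40.6 and 45.3 in WT, 40.9, 45.6 and 46.4 in WT + EtOH, 47.1, 43.1 and 67.9 in TLR4-KO, and 53.6, 39.1 and 50.6 in TLR4-KO + EtOH. The WT libraries lay within the range of the other 9 in both sums. They did not in the epithelial list of the miR-200 family, mmu-mir-203 and mmu-mir-205 (6 of 7 found, led by mmu-mir-200a, with mmu-mir-200c and mmu-mir-203 at 0), which summed to 51.4, 53.3 and 54.4 in WT and to between 0 and 33.0 in the other 9 libraries. The miR-183 cluster (3 of 3 found, led by mmu-mir-182) summed to 177, 212 and 214 in WT and to between 82.0 and 170 in the other 9.

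**Figure D3:**
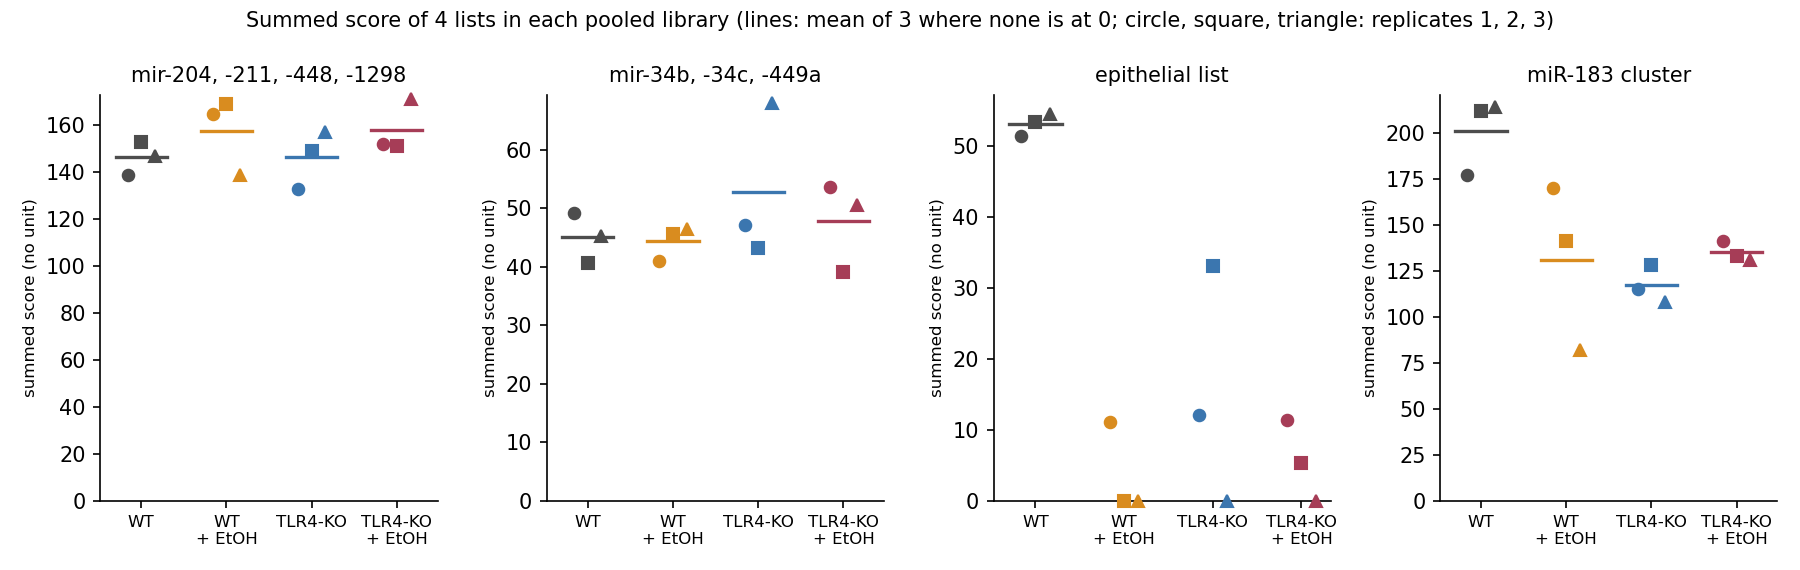
Summed score (no unit, vertical axis from 0) of 4 lists in each pooled library of the 4 groups, with 1 symbol per library and a line at the group mean where none of the 3 libraries is at 0. The WT libraries lie above the other 9 in the epithelial list and the miR-183 cluster, and within their range in the sums of the choroid plexus and multiciliated precursors.

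Of the epithelial list, 0 of 6 precursors passed the limma test in any comparison. mmu-mir-200a, its most abundant, scored 17.6, 25.7 and 21.7 in WT, and was at 0 in 6 of the other 9 libraries. For WT + EtOH minus WT, mmu-mir-200b differed by -22.4 (SE 4.75), mmu-mir-141 by -8.97 (SE 4.54) and mmu-mir-205 by 0. mmu-mir-205, above 0 in 2 libraries, did not follow mmu-mir-200a, with 5.53 (SE 2.27) for TLR4-KO + EtOH minus TLR4-KO. In the miR-183 cluster, mmu-mir-96 scored 12.1, 15.3 and 23.7 in WT and was listed at 0 in the other 9, with a difference of -17.0 (SE 2.41) both for WT + EtOH minus WT (limma, adjusted p = 0.0128) and for TLR4-KO minus WT (limma, adjusted p = 0.00948). These comparisons share the WT libraries. With only the 2 groups of a comparison in the fit, the limma adjusted p of mmu-mir-96 was 0.143 and 0.119. The rest of the cluster was not called there. mmu-mir-182 differed by -30.5 and -36.5 (SE 10.1, limma adjusted p = 0.227 and 0.131 in the main setting). mmu-mir-183 differed by -22.7 and -31.0 (SE 9.82, limma adjusted p = 0.387 and 0.170). For mmu-mir-182, WT + EtOH replicate 1 (91.7) lay above WT replicate 1 (90.3). The 4 choroid plexus precursors did not have their highest sums in WT, as the epithelial list did, and the part of dissection content in either was not tested.

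The remaining lists gave 2 precursors that passed the test. In the leukocyte list (5 of 5 found, mmu-mir-223 at 0, sum 127 to 163), mmu-mir-150 rose by 7.41 (SE 1.43, limma adjusted p = 0.0444) for WT + EtOH minus WT and by 9.28 (SE 1.43, limma adjusted p = 0.00958) for TLR4-KO minus WT. The erythroid list (3 of 3 found, led by mmu-mir-486a) summed to 162, 163 and 151 in WT. The other libraries summed to between 127 and 150. In this list, mmu-mir-451a fell by 14.6 (SE 2.63, limma adjusted p = 0.0346) for WT + EtOH minus WT. It fell by 17.6 (SE 2.63, limma adjusted p = 0.00948) for TLR4-KO minus WT. Its mean TLR4-KO difference was -11.9 (SE 1.86, limma adjusted p = 0.0204). The other erythroid precursors were not called: mmu-mir-486a differed by -0.383 and 0.486 (SE 1.71, limma adjusted p = 1) in the comparisons with WT, and mmu-mir-144, above 0 in 3 libraries, by 1.20 and -4.13 (SE 4.04, limma adjusted p = 1). Of the leukocyte list, the other 4 precursors were not called, and they did not all follow mmu-mir-150. For WT + EtOH minus WT, mmu-mir-142a differed by -2.81, mmu-mir-342 by 10.9 and mmu-mir-155 by 0. For TLR4-KO minus WT, mmu-mir-142a differed by -11.8, mmu-mir-342 by 1.64 and mmu-mir-155, above 0 in 2 libraries, by 7.32. Thus mmu-mir-142a went the other way in both comparisons. Both calls for WT + EtOH minus WT were lost without any 1 of the 3 WT libraries, with an adjusted p from 0.125 to 0.165 for mmu-mir-150 and from 0.0634 to 0.125 for mmu-mir-451a. The calls of both for TLR4-KO minus WT were kept with each library left out, and lost with only these groups in the fit (limma adjusted p = 0.0664 and 0.0745). The call of mmu-mir-451a for the mean TLR4-KO difference was lost in 4 of 12 omissions of a library (limma adjusted p of at most 0.0763). The sums of the other lists were 627 to 692 for neurons (13 of 13 found, led by mmu-mir-138-1), 49.6 to 89.4 for oligodendrocytes (4 of 4, led by mmu-mir-338) and 192 to 204 for vascular cells (3 of 3, led by mmu-mir-143). The list of fibroblasts and meninges (4 of 4, led by mmu-mir-199a-1, with mmu-mir-199b and mmu-mir-214 at 0) ran from 0 in WT + EtOH replicate 2 and TLR4-KO replicate 3 to 41.0 in TLR4-KO replicate 2, and 0 precursors of these 4 lists passed the limma test. The sums of the choroid plexus precursors in the same 3 libraries were 169, 157 and 149.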

How the data were processed

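Small RNA of pooled mouse cortex was measured in 12 libraries, 3 per group, and groups and replicate numbers were taken from the labels. The deposited values are a score per miRNA precursor. The authors' methods name normalization by the trimmed mean of M values, whereas the scores have the form of a scaled logarithm of reads after quantile normalization, with 0 kept, which is inferred from the values. The submitters' processing notes name FastQC 0.11.6, cutadapt 1, Bowtie2 2.2.5, TopHat and the build GRCm38. The scores are not whole numbers, so no count model was run. The table gives no depth, and read totals from other sources were not used here.

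The scores were fitted as they stand in R 4.3.3 with the package limma 3.58.1 (default lmFit and eBayes, 1 mean per group, all 12 libraries, prior degrees of freedom 0.308), with a Benjamini-Hochberg adjustment over 589 precursors for each of 7 contrasts and a threshold of 0.05. The fit was tested on simulated data. Exact two-sided permutation tests of 1 precursor permuted labels within a genotype or a drink. Descriptions used pandas 2.3.3 and numpy 2.4.6 under Python 3.11.15, and figures matplotlib 3.10.9. Positions came from GENCODE M21 (GRCm38) and sequences from RefSeq (GRCm38.p6), whose table matched 7 of 7 members and 480 of 589 precursors by name.

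Named are the 7 members, the other precursors of Htr2c, those sharing a seed, the 5 most like each member above 0 in all libraries by Pearson r, and of each cell type list the precursor with the highest mean and any called. The members and lists were chosen with earlier results of these data known. Alternatives were quantile normalization, centring on the library median, a filter that keeps the 285 precursors above 0 in 3 or more libraries, fits of the 2 groups of a comparison alone, the replicate number as a block, robust eBayes, eBayes with a trend, and the omission of single libraries, where the affected group keeps 2 libraries and takes its spread from all groups.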

Additional observations from a re-analysis of the deposited data

How the results depend on the processing

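No member was called by limma in any fit that was run. mmu-mir-34b and mmu-mir-449a did not pass the filter on low values, and fits of only the groups compared exist for 4 of the 7 contrasts. Counts over all 589 precursors moved more. With only precursors above 0 in at least 3 libraries they were 21 for WT + EtOH minus WT (10 in the main setting), 31 for TLR4-KO minus WT (15), 13 for the difference of the ethanol effects (7) and 0 for the mean ethanol effect (2), where fewer precursors were tested. With quantile normalization they were 0 for TLR4-KO + EtOH minus TLR4-KO (2), 1 for TLR4-KO + EtOH minus WT + EtOH (3) and 5 for the mean TLR4-KO effect (8), and with only the groups compared 0 and 0 for the first of these contrasts and the second. Centring on the library median gave 2 of 3 calls higher for the mean ethanol effect, against 1 of 2. With each library left out in turn they ran from 4 to 18, from 11 to 22, from 2 to 15 and from 2 to 8 in these contrasts, from 0 to 4 for TLR4-KO + EtOH minus TLR4-KO, from 0 to 3 for TLR4-KO + EtOH minus WT + EtOH and from 2 to 12 for the mean TLR4-KO effect. The cause was not tested.

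The replicate numbers do not pair the libraries by the labels, and the correlation of the deviations of same-numbered libraries was between -0.11 and 0.15, over 0.1 in 10 of 18 pairs. Of the 12 libraries, 8 correlated best with their own number. With the number as a block, 0 members were called in each contrast, and the counts over all precursors were 13, 24, 3 and 2 for the comparisons of groups, 3 for the difference of the ethanol effects, 3 for the mean ethanol effect and 10 for the mean TLR4-KO effect. In that fit the mean ethanol difference of mmu-mir-211 was -3.68 (SE 1.08, limma unadjusted p = 0.0132, adjusted p = 0.225, over all alternatives 0.225 to 1), against an unadjusted p of 0.156 without the block, and that of mmu-mir-204 had an unadjusted p of 0.0728. Members under an unadjusted limma p of 0.05 with the block were none for TLR4-KO minus WT (mmu-mir-34b was at 0.0562, and at 0.0476 without), mmu-mir-211 (0.0302) and mmu-mir-448 for TLR4-KO + EtOH minus TLR4-KO, where mmu-mir-34b dropped out likewise, and the same 2 for the mean ethanol effect. For mmu-mir-34b and mmu-mir-448 these p-values also pool the spread with groups at 0 in all their libraries.

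The exact permutation p of the mean ethanol effect of mmu-mir-204 ran from 0.01 to 0.065 with each library left out, that of its mean TLR4-KO effect from 0.245 to 0.945, and that of the mean ethanol effect of mmu-mir-34c from 0.25 to 0.985. Of 42 differences of members, 14 changed sign when 1 library was left out, none of these was larger in size than 2.08, and no other alternative turned a sign. With each library left out, WT + EtOH minus WT ran from -2.98 to 1.32 for mmu-mir-34c and, outside the members, from -2.27 to 5.43 for mmu-mir-34a. TLR4-KO minus WT ran from -0.502 to 2.15 for mmu-mir-204, from -0.0538 to 4.87 for mmu-mir-211 and from -3.43 to 1.90 for mmu-mir-34c. TLR4-KO + EtOH minus WT + EtOH ran from -1.48 to 4.17 for mmu-mir-204, from -1.52 to 2.18 for mmu-mir-211 and from -0.679 to 4.77 for mmu-mir-448. The difference of the ethanol effects ran from -2.10 to 3.55 for mmu-mir-204, from -4.05 to 0.866 for mmu-mir-211, from -0.679 to 4.77 for mmu-mir-448 and from -5.80 to 2.0 for mmu-mir-1298. The mean ethanol effect of mmu-mir-34c ran from -0.297 to 3.34, and the mean TLR4-KO effect from -0.429 to 2.4 for mmu-mir-204 and from -0.339 to 2.39 for mmu-mir-448.

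Outside the members, the limma call of mmu-mir-150 for WT + EtOH minus WT was lost in 9 of 12 omissions of a library and that of mmu-mir-451a in 8 of 12, and the call of mmu-mir-451a for the mean TLR4-KO effect in 4 of 12 (WT replicates 1 and 2, WT + EtOH replicate 2 and TLR4-KO + EtOH replicate 2), with adjusted p of at most 0.165, 0.125 and 0.0763.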

Other observations

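The replicate number of the labels went with the scores of mmu-mir-211, which was noticed after the values were seen. Replicate 1 held the lowest score of mmu-mir-211 in 4 of the 4 groups, at 14.7 (WT), 11.0 (WT + EtOH), 14.8 (TLR4-KO) and 13.7 (TLR4-KO + EtOH). Replicate 1 was also the library with the most precursors above 0 in each of the 4 groups (270, 270, 262 and 262). For mmu-mir-204, mmu-mir-1298 and mmu-mir-34c, replicate 1 was the lowest in 2 of the 4 groups each, for mmu-mir-204 in WT in a tie with replicate 3. The labels do not say what the number stands for.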
